A study of Mus musculus with 2 samples.

Results

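Galectins and lysozymes were described here as a group of 7 genes, Lgals1, Lgals3, Lgals3bp, Lgals8, Lgals9, Lyz1 and Lyz2, of 55536 annotated genes in the tables. They were chosen by name with earlier results of these data known, among them a several-fold difference of Lgals3 between the 2 deposited quantifications. The study sequenced chromatin-bound total RNA, depleted of ribosomal RNA, of macrophages grown from the bone marrow of C57BL/6J mice. These primary cells had received 100 ng/ml of lipid A for 75 min. Lipid A is the part of bacterial lipopolysaccharide that Toll-like receptor 4 detects. There was 1 group with 2 libraries, named as biological replicates 1 and 2, and no untreated cells, other time or other fraction was analysed here, so no response to lipid A was measured. No transgene or deletion is named in the labels, the age and sex of the mice were not collected, and both libraries carry the same donor label, so the spread between them may be that of cultures rather than of animals.

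Galectins are small proteins that bind beta-galactoside sugars. They are made in the cytosol without a signal peptide, leave the cell by an unconventional route and bind glycoproteins at the surface, and several of them gather on damaged endosomes and lysosomes, where sugars of the inner membrane face become exposed. Galectin-3 is the chimera type, with a proline- and glycine-rich tail, galectin-1 works as a dimer of single domains, and galectin-8 and galectin-9 each carry a pair of sugar-binding domains. Lgals3bp encodes a secreted, heavily glycosylated protein that galectin-3 binds, not a galectin. Lysozyme cleaves the peptidoglycan of bacterial cell walls. The mouse has a pair of neighbouring genes for it, Lyz2 (lysozyme M), a classical gene of macrophages and other myeloid cells, and Lyz1 (lysozyme P), best known from Paneth cells of the intestine. Chromatin-bound RNA holds many transcripts that are still being copied or spliced, so a level here is not that of the finished mRNA.

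Gene-level estimated counts on annotated genes summed to 21453617 in replicate 1 and 29638814 in replicate 2, and 3 counts, the limit that a count of 0 allows, corresponded to 0.140 and 0.101 CPM (counts per 1000000 counts of the library). Levels are given as TPM, which corrects for length and divides by the total of the table. The first quantification is the authors' gene and transcript tables made from alignments to the transcriptome, and the second is their transcript table made from the reads and a transcript index, summed here over the transcripts of each gene. TPM was higher in replicate 2 than in replicate 1 for most genes, with a median ratio of 1.73 over 7633 expressed protein-coding genes. Of 10 macrophage markers, 9 were at 1 TPM or more in both replicates (the exception, Fcgr1, was at 0.93 and 2.09), with Sirpa, Mrc1, Adgre1 and Cd14 highest. None of 12 neutrophil and progenitor markers, of 9 Paneth and intestinal epithelium markers, of 8 stromal markers or of 8 B and T cell markers reached that level in both in the first quantification. The summed TPM of these 4 lists was 1.67 and 1.82, 0.04 and 0.09, 0.92 and 2.14, and 0.09 and 0.16 in replicates 1 and 2, with the granule genes Elane, Mpo and Prtn3 at 0 counts. In the second quantification 2 of the B and T cell markers did reach it, Cd3d at 13.0 and 28.8 TPM and Ms4a1 at 1.03 and 1.87. In bulk RNA, fewer cells of a type and less RNA per cell cannot be told apart.

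Of the 7 genes, 6 were at 1 TPM or more in both replicates, against a background of 34.7% of protein-coding genes, and Lyz1 was not. Lgals3 stood first, at 149 and 306 TPM in replicates 1 and 2 (227 ± 111, SD, n = 2), from 3608 and 8508 counts. Among expressed protein-coding genes it lay above 98.2% and 98.7%. Its ratio to the next gene by mean TPM, Lgals3bp, was 5.22 and 5.18, so the replicates agreed on the first place. Lgals3bp was at 28.5 and 59.1 TPM (43.8 ± 21.6, SD, n = 2), Lyz2 at 35.7 and 43.0 TPM (39.4 ± 5.11, SD, n = 2) and Lgals8 at 17.9 and 43.2 TPM (30.5 ± 17.9, SD, n = 2). Lyz2 was above Lgals3bp in replicate 1 and below it in replicate 2, where Lyz2 and Lgals8 were level (ratio 0.994), so Lyz2 was not ordered against either neighbour. Lgals3bp was above Lgals8 in both libraries, by 1.60 and 1.37 times, a pair whose SDs overlap. These orders are those of the first quantification. In the second, Lgals3bp was at 33.7 and 91.1 TPM and Lgals8 at 31.4 and 91.8. Lyz2 was below both there in each library, at 27.7 and 35.7 TPM. In the first quantification Lgals9 was at 5.38 and 29.2 TPM (17.3 ± 16.9, SD, n = 2) and Lgals1 at 6.02 and 6.86 TPM (6.44 ± 0.594, SD, n = 2). Lgals9 was under Lgals1 in replicate 1 and 4.26 times above it in replicate 2, so this pair too was not ordered. Lgals8 was above Lgals9 in both libraries, by 3.32 and 1.48 times, and Lgals3bp, Lyz2 and Lgals8 were each above Lgals1 in both. Lgals1 rested on only 99 and 123 counts. Each member's identifier, in the version the tables use, and its mm10 position with GENCODE M21 were ENSMUSG00000068220.6 at chr15:78926725-78930465 (plus strand) for Lgals1 and ENSMUSG00000050335.17 at chr14:47367751-47386160 (plus) for Lgals3. Lgals3bp was ENSMUSG00000033880.11 at chr11:118392751-118402092 (minus), Lgals8 was ENSMUSG00000057554.13 at chr13:12439415-12464944 (minus) and Lgals9 was ENSMUSG00000001123.15 at chr11:78962974-78984946 (minus). Lyz1 (ENSMUSG00000069515.6, chr10:117287797-117292868) and Lyz2 (ENSMUSG00000069516.8, chr10:117277331-117282321) lie next to each other on the minus strand.

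**Figure D1:**
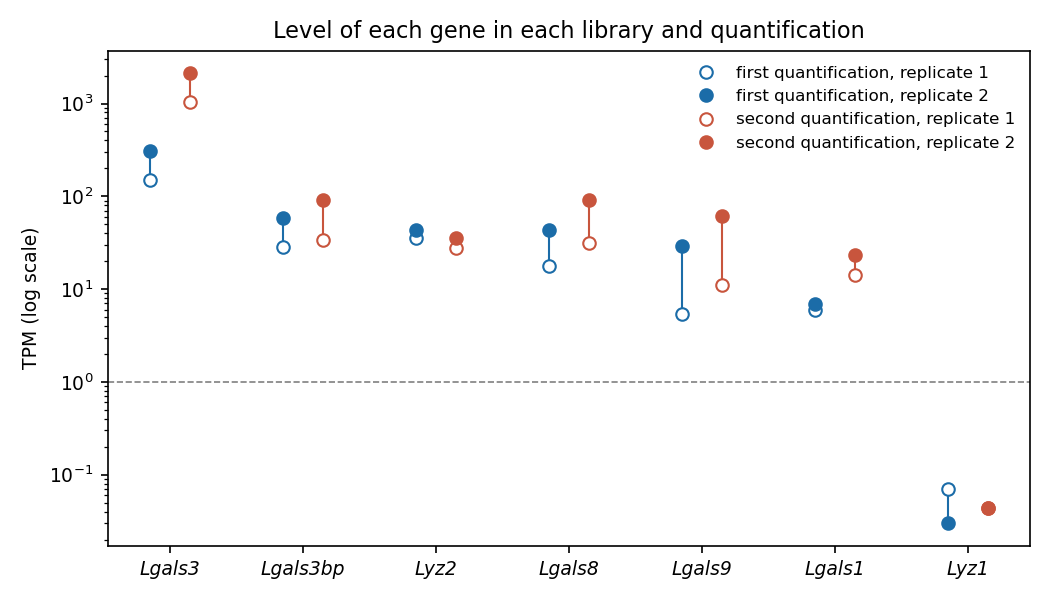
TPM on a log axis of each gene in each of the 2 libraries (open circles replicate 1, filled circles replicate 2) for the first and the second quantification; the dashed line marks 1 TPM. Lgals3 is the highest gene in all 4 columns of values and Lyz1 lies below 0.1 TPM in each.

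The 2 quantifications gave very different levels for Lgals3. The second quantification placed it at 1043 and 2119 TPM, 7.0 and 6.93 times the first in replicates 1 and 2, a difference that was used to choose the gene and is described only. The median ratio over expressed protein-coding genes was 1.34 and 1.51, and Lgals3 lay above 99.2% and 98.5% of them. In estimated counts the gap was smaller: 9875 and 20807 against 3608 and 8508, a ratio of 2.74 and 2.45 where the median was 1.71 and 1.68. Of the 7 genes, 3 were 2-fold or more higher in the second quantification in both libraries (Lgals1, Lgals3 and Lgals9), against a background of 32.6% of protein-coding genes at 1 TPM or more in either quantification, and none was 2-fold or more lower (background 0.0905%). Lyz1, under 1 TPM in both quantifications, is outside that background, so 6 members stand beside it. With TPM rescaled to protein-coding genes only, Lgals3 alone passed, at a mean ratio of 4.57. The size of the gap set Lgals3 apart from the other 6, whose TPM ratios, leaving out Lyz1 with its 1 or 2 counts, ran from 0.774 for Lyz2 in replicate 1 to 3.36 for Lgals1 in replicate 2.

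Nearly all of the Lgals3 gap in TPM lay in 1 short transcript model, Lgals3-206. GENCODE M21 lists 6 transcripts of the gene, each typed as protein-coding. Lgals3-206 is 210 bases long in 3 exons, and its end is marked as not found, so it is a fragment of a transcript. The first quantification gave it 0.57 TPM in replicate 1 and 0 in replicate 2. The second gave it 837 and 1687 TPM, 80.2% and 79.6% of the gene, from 2228 and 4594 estimated counts. Its TPM equalled 93.6% and 93.1% of the difference between the quantifications. In estimated counts it made up 35.6% and 37.3% of the difference, and Lgals3-203, described next, 65.9% and 65.5%. Within each table the TPM share of Lgals3-206 was alike in both libraries. With Lgals3-206 left out of both, a comparison added after its values were seen, the second-to-first ratio of Lgals3 was 1.39 and 1.41 in TPM, near the median gene, and 2.12 and 1.91 in counts.

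Lgals3-203 was the leading transcript outside that model. It spans 1072 bases and 6 exons, and it held 107 and 202 TPM in the first quantification, 71.9% and 66.2% of the gene. In the second quantification it held 176 and 354 TPM but only 16.8% and 16.7% of the gene. In counts it led in both tables, with 72.8% and 63.3% of Lgals3 in the first and 68.4% and 64.6% in the second. Lgals3-201, the longest form, was at 15.1 and 60.1 TPM in the first quantification and at 9.38 and 37.8 TPM in the second. Its share of the gene's TPM differed between the libraries, at 10.1% and 19.6% in the first and 0.90% and 1.78% in the second. In the first quantification it made up 28.7% of the gene's TPM difference between replicates. The remaining 3 models, Lgals3-202, Lgals3-204 and Lgals3-205, each held under 10% of the gene's TPM in every library and table.

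**Figure D2:**
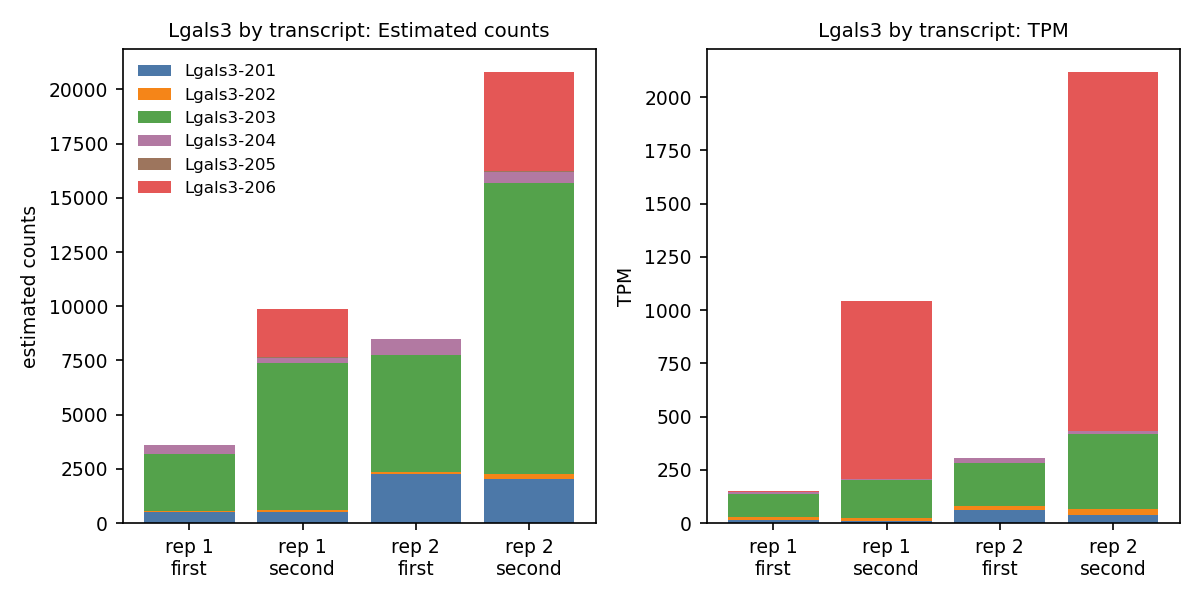
Lgals3 by annotated transcript in each library and quantification, stacked as estimated counts (left axis panel) and as TPM (right axis panel). Lgals3-206 holds 22.6% and 22.1% of the second quantification's counts in replicates 1 and 2 but 80.2% and 79.6% of its TPM, and is not visible in the first.

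The step from counts to TPM enlarged the share of Lgals3-206. It held 22.6% and 22.1% of Lgals3 counts in the second quantification but 80.2% and 79.6% of TPM, since TPM divides by the effective length, which was 60.2 and 61.2 bases for Lgals3-206 against 869 and 855 for Lgals3-203. The first quantification's effective length for it was shorter still, 24.3 and 26.7 bases. The labels give fragments of 250 to 400 bases, longer than the whole model. The effective lengths imply a mean fragment length below that range. For Lgals3-201, of 1419 bases, they were 1173 and 1182 in the first quantification and 1216 and 1202 in the second. How many fragments were short enough to fit the model was not tested. Short models as a class showed the gap often. Counted were coding transcripts of expressed genes, 210 bases or shorter and at 1 TPM or more in either quantification, Lgals3-206 included. Of these, 15 of 23 in replicate 1 and 17 of 25 in replicate 2 were 10-fold or more higher in the second quantification. The share was 58.7% and 63.1% for longer ones of up to 400 bases and 11.1% and 14.8% above 400 bases. Which table is nearer to the RNA in the cells was not tested.

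The sequences show how little separates Lgals3-206 from the other models. Below are 14 bases of exon 1 in lower case and the first 14 bases of exon 2 in capitals for the 5 models that start near the same place (mm10, plus strand, 5′ to 3′). Lgals3-202 and Lgals3-204, which fall outside the 10% rule for naming, are shown because each shares a side of the junction with Lgals3-206.
Lgals3-201: ggagcactaatcagGAAAATGGCAGACA
Lgals3-202: ggagcactaatcagGCTCGAATACCAAT
Lgals3-203: aactctcggagaaaGAAAATGGCAGACA
Lgals3-204: agagcactacccagGAAAATGGCAGACA
Lgals3-206: agagcactacccagGCTCGAATACCAAT
Lgals3-206 has the exon 1 end of Lgals3-204 and the long exon 2 of Lgals3-202. That exon starts at chr14:47379479, and its first 44 bases (chr14:47379479-47379522) lie inside an intron of Lgals3-201, Lgals3-203, Lgals3-204 and Lgals3-205. An index-based quantification matches short words of sequence. Their length in the second quantification is not given, and words of 31 bases (31-mers) were set here. Of the 180 31-mers of Lgals3-206, 154 also occur in other Lgals3 transcripts and 26 occur in no other annotated transcript. All 26 cross the junction printed above. It shares 127 31-mers with Lgals3-202 and 109 with Lgals3-204. Among the 6 models, the 44 added bases occur in Lgals3-202 and Lgals3-206 alone.

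The coding part of Lgals3-206, at chr14:47379527-47380132 on mm10, holds the start codon and the first codons of galectin-3, with the part from exon 2 in capitals and the part from exon 3 in lower case.
Lgals3-206 coding part: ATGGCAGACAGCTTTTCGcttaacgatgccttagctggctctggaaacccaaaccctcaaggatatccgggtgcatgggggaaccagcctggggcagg
These 98 bases occur in all 6 Lgals3 transcripts, so they cannot assign a read to any of them. By contrast 143 bases of exon 1 of Lgals3-203 (chr14:47373980-47374122) are in no other Lgals3 transcript, and they lie in an intron of the other forms.

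**Figure D3:**
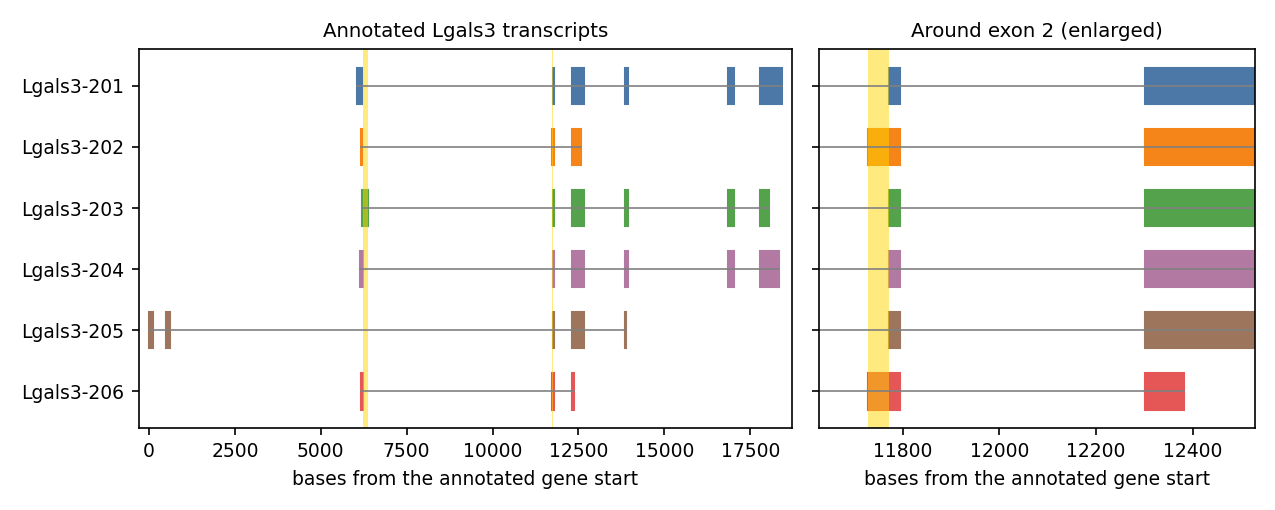
Exons (boxes) and introns (lines) of the 6 annotated Lgals3 transcripts by distance in bases from the annotated gene start, with the region of exon 2 enlarged on the right. Yellow bands mark the 143 bases found only in exon 1 of Lgals3-203 and the 44 bases that the long exon 2 of Lgals3-202 and Lgals3-206 adds.

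Lgals3bp, the galectin-3 ligand, was spread over 5 transcripts. Its full-length form Lgals3bp-201 (2330 bases, 6 exons) held 75.0% and 74.2% of counts in the first quantification but 34.6% and 29.9% of TPM. Lgals3bp-204, a form without an annotated reading frame, held 37.5% and 18.3% of TPM, from 127 and 141 counts. Lgals3bp-203, a model of 335 bases of which 294 lie in an intron of Lgals3bp-201, had 11 counts in replicate 1 and 60 in replicate 2, or 12.3% and 28.2% of TPM. In the second quantification it held 21.2% and 45.9%. Lgals3bp-205 held 8.69% and 20.0% of TPM in the first quantification and 0% and 1.06% in the second. Lgals3bp-202 held 6.97% and 3.61% in the first and 13.0% and 11.9% in the second. The gene's TPM in replicate 2 was 2.07 times that in replicate 1, beside a median ratio of 1.73 over expressed protein-coding genes. In counts scaled between the libraries, as described below, the log2 difference was only -0.07 (-0.19 to 0.06). Lgals3bp-203 and Lgals3bp-205 made up 43.1% and 30.6% of the TPM difference in the first quantification, and Lgals3bp-201, with most of the counts, 25.4%.

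Lgals8, whose product marks damaged vesicles that hold bacteria, had the most transcript models, 10. Forms annotated with a retained intron held 47.6% and 44.7% of its TPM in the first quantification and 55.3% and 45.9% in the second. Over 5233 expressed genes that have such a form the median was 44.7% and 47.2% in the first quantification and 43.0% and 45.6% in the second. Lgals8 lay within the quartiles of both tables, and was farthest above the median in replicate 1 of the second. Lgals8-204, which covers the 3′ part of the gene, held 23.9% and 25.4% of TPM, and Lgals8-210 held 19.7% and 15.4%. Among coding forms, Lgals8-201 held 12.2% and 12.8%, Lgals8-206 held 14.97% and 5.25% and Lgals8-208 held 12.1% and 5.86%. Lgals8-206 was at 0 counts and 21.2 counts in the second quantification, against 172 and 158 in the first, so the split among coding forms depended on the table. Lgals8-209, of 289 bases, gave 10.7% and 25.6% of TPM from 4 and 27 counts, or 0.573% and 1.66% of the gene's counts. It alone made up 36.1% of the TPM difference between replicates. The last 875 bases of Lgals8 overlap Heatr1, a ribosome biogenesis gene on the opposite strand at 5.86 and 7.56 TPM. No source used here says whether counting took account of strand, and reads of the pair may be shared there.

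Lgals9 differed most between the replicates. It is a gene known to respond to interferon, and its product binds TIM-3 and other surface glycoproteins. It had 172 counts in replicate 1 and 792 in replicate 2. After scaling by the trimmed mean of M-values (TMM), which evens out composition between libraries, that was a log2 difference of 1.18 (exact 95% interval 0.94 to 1.42, counting error only). Its coding form Lgals9-202 had 121 counts in replicate 1 and 510 in replicate 2, and its retained intron form, Lgals9-204, had 21 and 262. On the TMM scale these were log2 differences of 1.05 (0.76 to 1.35) and 2.61 (1.97 to 3.33). These intervals leave out the error of assigning reads to forms, so they do not set the 2 forms apart. The deposited posterior standard deviation was 21.5 and 22.45 counts for Lgals9-202 and 0 for Lgals9-204. Lgals9-203, a further coding form, went the other way, from 30 to 20 counts. Lgals9-204 held 26.5% and 55.7% of the gene's TPM in replicates 1 and 2 in the first quantification and 31.5% and 46.3% in the second. Against the quartiles of genes with such a form in the first quantification, 27.0% to 62.2% and 30.6% to 63.6%, replicate 1 was just below the lower one and replicate 2 was between them. Lgals9-204 made up 62.3% of the gene's TPM difference between replicates in the first quantification. It held a smaller part of the counts there, 12.2% and 33.1%. Its effective length was 496 and 505 bases, against 1274 and 1283 for Lgals9-202, which raises its part in TPM. Of its 742 exon bases, 617 lie in introns of Lgals9-202. Lgals9-203 held 13.9% and 1.57% of TPM in the first quantification and 0% and 0.313% in the second. No other gene overlaps Lgals9, and the nearest annotated gene, Nos2, ends 2719 bases away on the opposite strand and was at 2.18 and 4.77 TPM.

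The RefSeq promoter window of Lgals9 (GRCm38.p6, 250 bases before to 50 after the start site) holds 2 matches to the core of an interferon-stimulated response element, searched on both strands as GAAANNGAAA after the values had been seen. They read GAAAAAGAAA at chr11:78984970-78984979 and GAAACAGAAA at chr11:78984900-78984909, both on the strand opposite to the gene. None of the other 5 members with a window in the RefSeq table (Lgals3, Lgals3bp, Lgals8, Lyz1 and Lyz2) holds this core, and 3.44% of 32851 promoters do. The core of a gamma-activated site, TTCNNNGAA, was in none of the 6 windows and in 8.3% of promoters. A match is a string of letters and not a bound site.

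Lgals1 was the lowest of the 6 members that passed 1 TPM. The first quantification gave all of its 99 and 123 counts to the coding form Lgals1-201. The second gave 47.9% and 54.8% of the TPM to Lgals1-202, a form annotated as a target of nonsense-mediated decay, of whose 628 bases 103 lie in an intron of Lgals1-201. The coding form alone was at 7.35 and 10.4 TPM in the second quantification, against 6.02 and 6.86 in the first. The gene totals of 14.1 and 23.0 TPM there thus held both forms in like amounts.

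**Figure D4:**
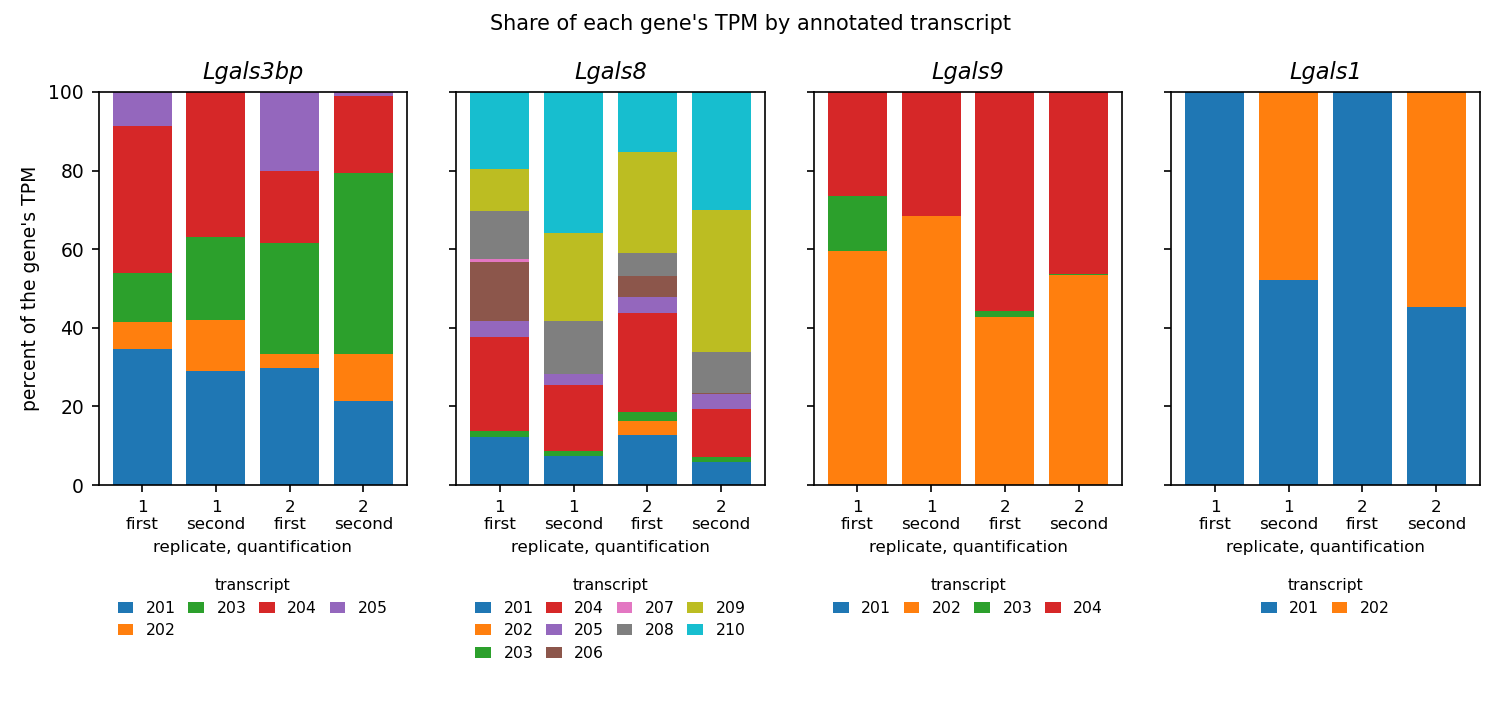
Percent of each gene's TPM on each annotated transcript for Lgals3bp, Lgals8, Lgals9 and Lgals1, by replicate and quantification (bars add to 100%). The retained intron form Lgals9-204 holds 26.5% in replicate 1 and 55.7% in replicate 2 in the first quantification, and Lgals1-202 holds 0% in the first and 47.9% and 54.8% in the second.

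The lysozyme genes gave the plainest contrast. Lyz2 had 1136 and 1477 counts and Lyz1 2 and 1, a ratio of 568 (exact 95% interval 157 to 4696) and 1477 (265 to 58377) in replicates 1 and 2. Lyz1 was at 0.07 and 0.03 TPM in the first quantification and 0.0432 and 0.0438 in the second, all at or under the limit of 3 counts. Lyz2 had 1 transcript and was at 35.7 and 43.0 TPM in the first quantification and 27.7 and 35.7 in the second. Its second-to-first ratio of 0.774 and 0.831 was low against the median gene: 1.90% and 2.03% of expressed protein-coding genes had a lower one. The genes are near copies: their coding sequences of 444 bases differ at 22 (95.045% identical), and their 148-residue proteins at 12. The stretch where most differences fall is shown from coding base 37 to 156, counted from the A of the start codon on the GENCODE M21 transcripts, with the 14 differing bases in capitals.
Lyz1: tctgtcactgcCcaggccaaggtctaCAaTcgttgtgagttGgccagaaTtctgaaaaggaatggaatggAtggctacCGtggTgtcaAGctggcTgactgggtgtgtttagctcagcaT
Lyz2: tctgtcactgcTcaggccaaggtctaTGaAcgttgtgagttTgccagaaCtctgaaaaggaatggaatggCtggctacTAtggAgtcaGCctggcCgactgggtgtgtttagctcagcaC
Reads could be told apart over most of either transcript. Of the 31-mers of Lyz2, 32.8% occur in Lyz1, and of those of Lyz1, 34.2% occur in Lyz2. Their promoters, compared without gaps from the RefSeq start sites, are alike at 80 of the 100 bases that lie 149 to 50 bases before the start, the nearest stretch outside both annotated transcripts (GRCm38.p6, minus strand, chr10:117292918-117293017 for Lyz1 and chr10:117282322-117282421 for Lyz2, differing bases in capitals).
Lyz1 promoter: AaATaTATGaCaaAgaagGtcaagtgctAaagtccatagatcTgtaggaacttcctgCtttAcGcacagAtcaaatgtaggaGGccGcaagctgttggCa
Lyz2 promoter: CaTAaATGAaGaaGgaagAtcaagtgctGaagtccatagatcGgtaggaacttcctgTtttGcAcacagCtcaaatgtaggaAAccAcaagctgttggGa
Over all 201 bases compared, 103 were the same. Because no gaps were allowed, a single inserted or lost base would lower the matches beyond it. These counts therefore do not measure how alike the promoters are farther from the start.

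Between the replicates, 1 of the 6 members whose counts summed to 20 or more differed by 2-fold or more on the TMM scale, Lgals9, which was higher in replicate 2 (background 9.56% of 14442 genes higher). None was 2-fold lower (background 4.88%). The log2 difference was 0.21 (0.15 to 0.27) for Lgals3, 0.19 (0.06 to 0.32) for Lgals8 and -0.07 (-0.19 to 0.06) for Lgals3bp. It was -0.65 (-0.76 to -0.53) for Lyz2 and -0.71 (-1.11 to -0.32) for Lgals1. The middle 50% of expressed protein-coding genes, from -0.43 to 0.32, held Lgals3, Lgals8 and Lgals3bp and did not hold Lgals9, Lyz2 or Lgals1. The direction depended on the scale for some: the median gene moved by -0.07 with TMM, by 0.49 with library size alone and by 0.79 in log2 TPM. Lgals9 and Lgals8 were higher in replicate 2 under each scaling run (TMM, DESeq2 size factors, library size, TPM + 1 and the second quantification's TMM). Lgals3 was at -0.12 with the second quantification's counts. Lgals3bp was at 0.49 with library size alone, and Lyz2 and Lgals1 were at 0.26 and 0.16 in log2(TPM + 1). The starting RNA was 250 ng for replicate 1 and 500 ng for replicate 2, and its part in the differences was not tested.

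**Figure D5:**
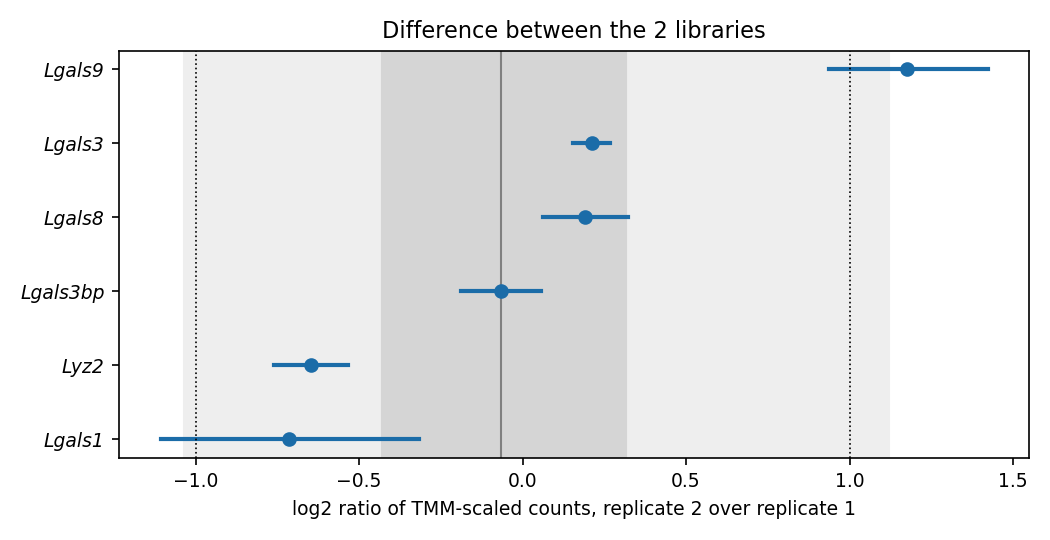
Log2 ratio of TMM-scaled counts, replicate 2 over replicate 1, for the 6 genes with enough counts; bars are exact 95% intervals for counting error. Dark grey spans the middle 50% and light grey the central 95% of 7633 expressed protein-coding genes, the grey line is their median and dotted lines mark 2-fold; Lgals9 at 1.18 lies past the light grey band.

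Few other genes of the families were present. Of 6 other galectin family genes in the annotation, Lgals4 was the single one at 1 TPM or more in both replicates, at 3.85 and 3.99 TPM from 84 and 114 counts, and at 2.56 and 3.32 TPM in the second quantification. It encodes a galectin best known from the intestinal lining, and the Paneth and epithelial markers were at or near 0 in the same libraries. None of 8 other lysozyme family genes reached 1 TPM, and 7 of them were at 0 counts in both libraries of the first quantification.

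Counts of expressed genes in the lists that follow stand beside the 34.7% of all protein-coding genes, and each list was chosen with results of these data known. Of 18 genes for enzymes that build or modify glycans, among them those that galectins bind, 11 were at 1 TPM or more in both replicates. The highest were Man2a1, a Golgi mannosidase, at 41.3 and 79.3 TPM, Mgat4b, a branching enzyme, at 36.0 and 34.7, B3gnt2, which extends lactosamine chains, at 16.8 and 32.3, and Mgat5, a branching enzyme whose products galectin-3 binds, at 21.02 in both. Of 18 genes for receptors and glycoproteins that galectins bind, 15 were expressed. Cd44, the hyaluronan receptor, was highest at 461 and 1312 TPM, above Lgals3 in the first quantification. In the second it was below Lgals3, at 584 and 1649 TPM against 1043 and 2119. Next in the first quantification were Ptprc (CD45) at 175 and 767 and Slc3a2 (CD98 heavy chain) at 47.9 and 85.9. Lamp1, a lysosomal membrane glycoprotein, followed at 35.9 and 78.9. In this list 3 of 16 genes with enough counts were 2-fold or more higher in replicate 2 on the TMM scale and 2 lower, beside 9.56% and 4.88% of all genes. Ptprc, at a log2 difference of 1.12, was among the higher.

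Of 18 genes of the lysosome damage response, 15 were expressed, led by the autophagy receptor gene Sqstm1 at 356 and 344 TPM, the kinase gene Tbk1 at 85.8 and 130, the receptor gene Optn at 52.0 and 85.3 and Pdcd6ip (ALIX), a membrane repair factor, at 43.5 and 82.3. All 18 genes of antibacterial and lysosomal effectors were expressed, led by Cybb, the catalytic subunit of the phagocyte oxidase, at 205 and 493 TPM, the protease gene Ctsb at 168 and 316 and Psap, the precursor of the saposins, at 201 and 171. Lyz2, at 35.7 and 43.0 TPM, was below the median of that list in both replicates, 38.5 and 71.2 TPM. On the TMM scale none of the lysosome damage genes was 2-fold apart between the replicates, and 3 of 18 effectors were 2-fold or more lower in replicate 2, beside 4.88% of all genes.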

How the data were processed

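The authors deposited, per library, gene and transcript tables of estimated (expected) counts, TPM and FPKM on mm10 with GENCODE M21 annotation, derived from transcriptome alignments, and a second transcript table of estimated counts and TPM derived from the reads and a transcript index, per the text deposited with the libraries. Column names are those RSEM and kallisto write, but no source used here gives the aligner, the quantifiers, their versions or the strand setting. The deposited posterior standard deviation of each count (unit: score) was 0 to 0.09 counts for the members at gene level. For some transcripts it was far larger. It was 50.75 and 92.12 on 526 and 2262 counts of Lgals3-201, and 49.11 and 63.03 on 172 and 158 of Lgals8-206. For Lgals9-203 it was 21.44 and 22.47 on 29.71 and 19.87. It entered no calculation, so transcript shares and intervals leave this uncertainty out. FPKM, per the file headers, served as an alternative scale.

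The members and all gene lists were chosen with earlier results of these data known, so levels and differences are descriptions and no p-value is given. Gene identifiers were matched exactly to GENCODE M21, and the 26345 rows with no annotated gene held 0.409% and 0.277% of counts and were left out. Expressed meant 1 TPM or more in both replicates. Counts were rounded, scaled by TMM (edgeR 4.0.16, R 4.3.3; factors 0.824 and 1.21) and compared as replicate 2 over replicate 1 for summed counts of 20 or more, with exact conditional binomial 95% intervals. With no molecular identifiers, intervals and limits cover counting error only. DESeq2 1.42.0 size factors were an alternative. A chi-square of 489 for each of 14441 degrees of freedom showed that the tables were not copies of 1 library. Sequences came from GENCODE M21 transcripts and the RefSeq promoter table, which held 6 of the 7 members. All members were named. Transcripts were named at 10% or more of a member's TPM in either quantification, and other lists by at most their 4 highest genes.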

Additional observations from a re-analysis of the deposited data

How the results depend on the processing

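No paired analysis was possible because the series has a single group. The count of 6 members at 1 TPM or more was 6 under each alternative run (second quantification, 0.5 or 2 TPM, TPM over protein-coding genes, FPKM, and leaving out either replicate). The levels themselves were less stable. With TPM over protein-coding genes only, the mean moved by 1 SD or more for 7 members, that of Lgals3 from 227 to 1145 TPM. In the second quantification it did so for 5. Of the members 2-fold or more apart between quantifications, 3 as reported, 1 passed at 3-fold and 1 with TPM over protein-coding genes only, and the number was 3 to 4 when either replicate was left out. Without Lgals3-206, an alternative chosen after seeing the data, 2 passed. Of the members 2-fold or more apart between replicates, 1 as reported, 4 passed in TPM + 1, 2 with no filter on low counts (Lyz1, with 2 and 1 counts, was the addition) and 3 at 1.5-fold. The share of Lgals3-206 was 0.191% as reported (0 to 0.382% by replicate) and 79.9% in the second quantification, and that of Lgals3-203 was 69.0% (66.2 to 71.9%) and 16.8%. The retained intron share of Lgals8 was 46.2% (44.7 to 47.6%), 41.5% in counts and 50.6% in the second quantification. That of Lgals9 was 41.1% (26.5 to 55.7%), with 22.6% in counts and 38.9% in the second quantification. Lgals1-202 was 0% as reported and 51.3% in the second quantification. Fewer samples or another fold set some of these by construction, and for the others the cause was not tested. With 2 libraries the SD is itself poorly known, and Lgals1 and Lyz1 are limited by depth.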
